A study of Mus musculus with 6 samples.

Results

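Cathepsins are the main proteases of the lysosome, and cystatin C is a secreted protein that inhibits the cysteine cathepsins. Here 9 cathepsin genes (Ctsa, Ctsb, Ctsc, Ctsd, Ctsh, Ctsk, Ctsl, Ctss and Ctsz) and Cst3, which encodes cystatin C, were followed through the cell types of the proximal pulmonary artery (PA). These 10 genes, picked by symbol, are among 53647 genes counted in each library. Single cell RNA sequencing libraries of PAs from 6 C57BL/6J mice were used, 2 young and 4 old, all wild type and untreated. At 3 months 1 male and 1 female were taken as young, and the old mice were aged 20, 24, 27 and 28 months, the last one female. Each library came from PAs excised with surrounding tissue and digested with collagenase and elastase, so cells of airway, mesothelium and lymphoid tissue were present beside those of the wall. Values per library are given below in the order 3-month male, 3-month female, 20, 24, 27 and 28 months.

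Most cathepsins are cysteine proteases that cut proteins inside lysosomes, and several are also released from cells. Cathepsins K, L and S can degrade elastin and collagen outside cells, which is why they are studied in arterial wall remodelling, and cystatin C binds and blocks them there. Cathepsin S also trims the invariant chain Cd74 in cells that present antigen on MHC class II, and cathepsin C activates the serine proteases of granules.

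The libraries differed in depth. Total UMIs (unique molecular identifiers, each standing for 1 captured RNA molecule) ran from 6355125 to 50436562, and 15319 barcodes were used as cells. The median cell held 841 UMIs in the young male, 816.5 in the young female and 799 at 24 months, against 2161, 8052 and 5431 at 20, 27 and 28 months. The 3 shallow libraries also shared cell barcodes. The young male and female shared 156, the young male and the 24-month mouse 131, and the young female and the 24-month mouse 215. Other pairs shared at most 4. Barcodes kept numbered only 935 in the young female, beside 2722 in the young male and 2868 at 24 months. Both young libraries are in this set, so age, depth and barcode sharing cannot be told apart for 3 of the 4 old mice. Sexes are given as the study describes them. In the 20-month library, from a mouse described as male, Xist held 3113 UMIs and the Y-linked Ddx3y 8488, while the Y-linked Uty, Kdm5d and Eif2s3y held 77, 17 and 25. The 27-month library held 230 UMIs of Xist, 2364 of Uty, 533 of Kdm5d and 1997 of Eif2s3y. Xist and Uty held 437 and 596 UMIs in the young male, 1300 and 171 in the young female and 335 and 730 at 24 months, so both were read in each of these 3 libraries.

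Cells were sorted into types by clustering without any cathepsin, cystatin or stefin gene. Macrophages (MΦs, clusters in which at least 50% of cells had a C1qa UMI) numbered 273, 44, 122, 148, 225 and 427, and fibroblasts (FBs) 91, 29, 132, 216, 494 and 818. MΦ markers summed to between 7154 and 37870 CPM (UMIs per 1000000 UMIs of the summed cells) in MΦs and to between 95.6 and 1899 CPM in FBs, with 0 to 9 of the 10 listed markers at 0 there. FB markers summed to between 17550 and 24610 CPM in FBs and between 22.2 and 109 CPM in MΦs, with 1 to 9 of 10 at 0 there. MΦs did not fall in the same clusters in every library. In the young male, 213 of 273 fell in a cluster led by Cpa6, Gm10801, Cxcl2 and Marco. In the young female 36 of 44 fell in one led by Prg4, Alox15 and Saa3, which also held 90 of 148 at 24 months. At 20 months 118 of 122 were MHC class II-high, 112 of them in a cluster of that library alone, led by Gm48681, Gm34319 and Gm44511. The MHC class II-high MΦs of 27 and 28 months lay in another cluster, led by Mmp12 and Mmp13. At 27 and 28 months 192 of 225 and 346 of 427 were Lyve1-type, the perivascular kind marked by Lyve1 and F13a1. These also lay mostly in different clusters. Of the 192, 162 fell in one led by F13a1 and Lyve1, and of the 346, 345 fell in one led by Ccl8, Apoe and F13a1. Named instead cell by cell from marker UMIs, each MΦ had to be Lyve1-type or MHC class II-high. Lyve1-type then made up 114 of 187, 34 of 44, 25 of 83, 73 of 120, 130 of 156 and 251 of 375.

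Ctsk and Ctss are close neighbours on chromosome 3 with opposite patterns in MΦs and FBs. In the RefSeq annotation of GRCm38.p6, Ctsk lies at chr3:95499210-95509387 and Ctss at chr3:95526786-95556405, with 1 predicted gene, Gm40096, between them. Ctsl lies at chr13:64361890-64370772 and Cst3 at chr2:148871722-148875512. The 300 bases around the annotated starts of the 3 elastin-degrading cathepsins are shown because their cell-type patterns differ, with Ctsk at chr3:95498960-95499259 (plus strand), Ctss at chr3:95526536-95526835 (plus strand) and Ctsl at chr13:64370471-64370770 (minus strand). Capitals mark 2 motifs searched on both strands, CACGTG, the core of the site of lysosomal gene activators such as TFEB, and GAGGAA, a core found in sites of the myeloid factor PU.1. The motifs do not overlap each other. The Ctsl window lies wholly inside the span of the gene given above, around a start within it. Those of Ctsk and Ctss reach upstream of the gene. The motif counts of Ctsl are thus not those of its outermost start.

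Ctsk: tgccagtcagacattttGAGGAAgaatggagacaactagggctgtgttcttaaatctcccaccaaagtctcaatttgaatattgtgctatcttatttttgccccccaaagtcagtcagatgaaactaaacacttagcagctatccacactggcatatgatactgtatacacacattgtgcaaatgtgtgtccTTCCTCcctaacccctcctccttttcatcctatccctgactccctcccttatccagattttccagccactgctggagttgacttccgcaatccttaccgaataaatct
Ctss: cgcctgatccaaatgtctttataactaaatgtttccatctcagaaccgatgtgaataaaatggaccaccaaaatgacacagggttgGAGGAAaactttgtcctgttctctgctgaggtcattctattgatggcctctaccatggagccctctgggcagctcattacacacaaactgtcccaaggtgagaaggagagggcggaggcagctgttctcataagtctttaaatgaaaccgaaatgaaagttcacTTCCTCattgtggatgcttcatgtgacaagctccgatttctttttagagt
Ctsl: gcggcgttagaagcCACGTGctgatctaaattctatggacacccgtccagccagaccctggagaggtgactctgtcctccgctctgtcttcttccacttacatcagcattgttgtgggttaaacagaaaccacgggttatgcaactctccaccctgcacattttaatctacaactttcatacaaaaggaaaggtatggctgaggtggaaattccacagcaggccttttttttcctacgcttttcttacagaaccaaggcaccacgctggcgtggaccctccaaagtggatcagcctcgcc

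GAGGAA or its reverse complement occurred 2 times in each of the Ctsk and Ctss windows and 0 times in that of Ctsl, beside 28.3% of 32851 windows of this length with at least 1 match. CACGTG occurred 1 time in the Ctsl window and in neither of the other two, and 7.15% of all windows hold it. The windows of Ctsd and of the later start of Ctsa held CACGTG 2 times each. GAGGAA or its reverse complement also occurred 2 times in the Ctsc window and 1 time in that of Cst3. It occurred 0 times in those of Ctsa, Ctsd and Ctsz. Windows were at hand for 8 of the 10 genes, not for Ctsb and Ctsh.

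Ctss, which encodes cathepsin S, was read in MΦs and B cells and hardly in FBs. In MΦs it stood at 505, 845, 1195, 899, 916 and 1362 CPM. In FBs it stood at 0, 0, 5.17, 0, 0.688 and 4.17 CPM. The groups do not overlap. A count of 0 in FBs allows up to 37.5 CPM in the young male, 143 in the young female and 14.9 at 24 months, since few FB UMIs were read there. The 26 Ctss UMIs found in FBs compare with 28.4 that would accompany the 297 C1q UMIs of the same cells at the MΦs' own ratio of Ctss to C1q. The 28-month library alone gives 22 of the 26 found and 24.3 of the 28.4, and at 20 months 2 were found where 0.124 would be. C1q-negative MHC class II-high cells held 479, 905 and 629 CPM (3-month male, 3-month female and 24 months), B cells a median of 422 and T cells a median of 45.3 CPM.

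Ctsk, which encodes cathepsin K, a collagen- and elastin-cutting protease best known from osteoclasts, had the opposite pattern. FBs held 62.5, 95.6, 54.2, 84.4, 46.1 and 56.5 CPM, of which the values of the young male and female rest on 5 and 2 UMIs. MΦs held 3.94, 0, 3.31, 5.08, 3.09 and 4.10 CPM, all below the lowest FB library. These rest on 17 Ctsk UMIs in all MΦs, where FB collagen UMIs carried over at the FBs' own ratio would bring 0.807. Among the other types only blood endothelial cells (ECs) reached the range of FBs, with 52.1, 42.5, 5.65 and 22.5 CPM at 20, 24, 27 and 28 months. Both young libraries were at 0 in ECs, but that allows up to 52.5 and 66.9 CPM, so a difference with age was not detectable at this depth.

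Ctsl, which encodes cathepsin L, a general lysosomal protease, was read in both cell types. FBs held 700, 717, 989, 859, 625 and 838 CPM, which was the highest median of all types (777 CPM). MΦs held 532, 556, 232, 264, 218 and 1011 CPM. MΦs were below FBs in 5 of 6 libraries, and at 28 months they were above. Mesothelial cells (370 to 449 CPM) came next to FBs without overlapping them, and MΦs, SMCs (smooth muscle cells), blood ECs and airway epithelial cells overlapped in the order of levels.

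**Figure D1:**
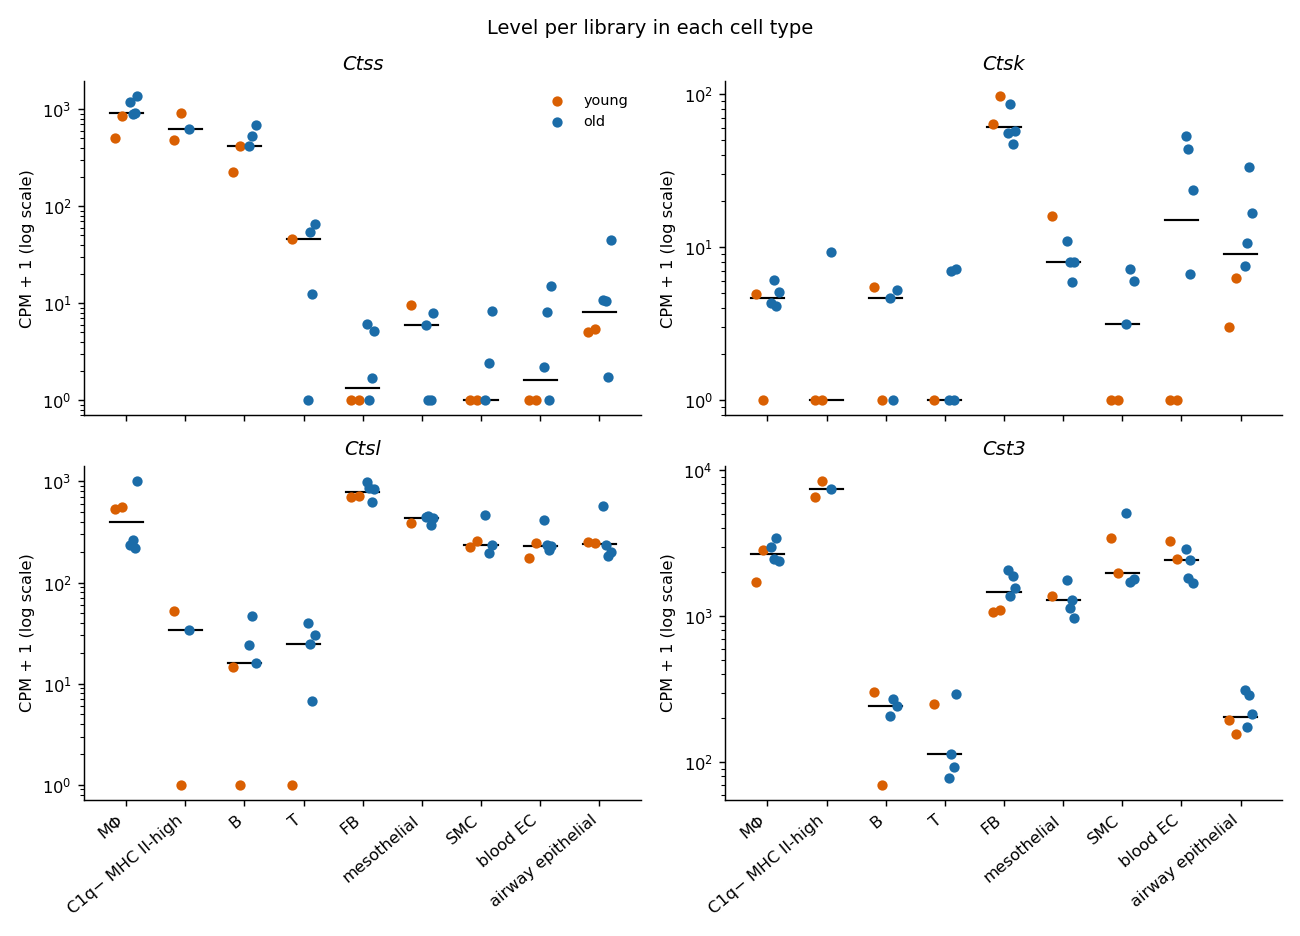
CPM + 1 on a log axis for Ctss, Ctsk, Ctsl and Cst3 in 9 cell types, with 1 point per library of at least 10 cells (young orange, old blue) and a bar at the median. Ctss is high in MΦs, C1q-negative MHC class II-high cells and B cells, Ctsk in FBs, Ctsl in FBs and more variably in MΦs, and Cst3 is at least 977 CPM in every library of these types except B, T and airway epithelial cells.

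Cst3, the inhibitor, was read in all types. It was highest in the C1q-negative MHC class II-high cells, at 6582, 8448 and 7424 CPM in the 3 libraries with at least 10 such cells, above every MΦ library. MΦs held 1707, 2823, 3000, 2473, 3414 and 2387 CPM and FBs 1063, 1099, 2067, 1375, 1894 and 1557 CPM. MΦs were above FBs within each of the 6 libraries, while the ranges of the groups overlapped. SMCs (1707 to 5080 CPM) and blood ECs (1685 to 3256 CPM) overlapped MΦs, and B, T and airway epithelial cells held medians of 244, 113 and 204 CPM. Free RNA in barcodes of 10 to 100 UMIs held Cst3 at 257 to 1061 CPM. In the young male B cells held 300.1 CPM beside 257 in free RNA, and every other value of B, T and airway epithelial cells was below the free RNA of its own library.

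The remaining cathepsins are those of lysosomal turnover, and in all of them the median was higher in MΦs than in FBs. Ctsb, which encodes the abundant protease cathepsin B, stood at 3118, 978, 1686, 1153, 2962 and 4021 CPM in MΦs and at 300 to 462 CPM in FBs. No other type of at least 2 libraries exceeded 513 CPM, so Ctsb set MΦs apart from all of them. In the 28-month library alone, monocytes held 851 and mast cells 920 CPM of Ctsb, near the lowest MΦ library. Ctsc, the activator of granule serine proteases, stood at 536, 333, 676, 523, 1873 and 2578 CPM in MΦs and at 0 to 25 CPM in FBs, and at 963 CPM in the monocytes of the 28-month library. The 80 Ctsc UMIs in FBs compare with 53.4 brought at the MΦs' ratio to C1q. Ctsa, a carboxypeptidase that also protects lysosomal sialidase and galactosidase, stood at 208 to 466 CPM in MΦs, above every library of SMCs (77.1 to 134 CPM) and FBs (51.6 to 95.6 CPM).

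Ctsh, an aminopeptidase, differed in rank. With all MΦs pooled, its highest median was in blood ECs, at 315, 646, 842, 418, 612 and 578 CPM. MΦs followed with 217, 245, 421, 239, 564 and 1055 CPM, overlapping the ECs, and FBs held 0 to 97.3 CPM. Lyve1-type MΦs alone had a median of 819 CPM over 2 libraries, beside a median of 595 CPM in blood ECs over all libraries. Within these 2 libraries the order differed. At 27 months Lyve1-type MΦs held 562 CPM, below the 612 CPM of blood ECs. At 28 months they held 1076 CPM, above the 578 CPM of blood ECs. Ctsz, a carboxypeptidase, overlapped between MΦs (200 to 776 CPM) and FBs (119 to 251 CPM), although MΦs were above FBs within each library. Ctsd, the aspartic protease of lysosomes, was read in few UMIs, with 100 in MΦs and 15 in FBs over all libraries. In the GENCODE M21 annotation Ctsd shares 6757 of its 12128 bases with Gm49369 on the same strand, and Gm49369 is listed at 0 in MΦs and FBs, so the level of Ctsd is uncertain.

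MΦs and FBs were compared over the 6 libraries with the library as a block. All 10 genes passed an adjusted p of 0.05 in edgeR's quasi-likelihood test, 8 higher and 2 lower in MΦs. Of the 7947 genes tested 44% did, 23% higher and 21% lower. Ctsc, Ctsd and Ctss entered the test through their share of MΦs alone, and Ctsk through its share of FBs. This entry rule favours the direction seen for them. Without a gene filter 8 of the 10 were higher and 1 lower. The median log2 fold change was 2.56 over the 10 genes and 0.05 over all genes tested. Libraries of MΦs and FBs did not overlap for 6 of the 10 genes (Ctsa, Ctsb, Ctsc, Ctsh, Ctsk and Ctss), and for 17.2% of all genes tested.

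Ctss was higher in MΦs by 9.02 on the log2 scale (SE 0.49, adjusted p = 3.5e-11), a value that depends on the few FB UMIs described above. Ctsc was higher by 7.65 (SE 0.53). Ctsd, Ctsh, Ctsb and Ctsa followed at 3.37 (SE 0.51), 3.08 (SE 0.33), 2.65 (SE 0.35) and 2.48 (SE 0.31). Ctsz and Cst3 rose least, by 1.46 (SE 0.27) and 0.95 (SE 0.27, adjusted p = 0.0070). Ctsk was lower in MΦs with a log2 fold change of -3.71 (SE 0.36, adjusted p = 3.9e-08). Ctsl was lower with -0.84 (SE 0.34), and its adjusted p of 0.049 did not pass in 10 of 17 alternative fits (adjusted p from 0.013 to 0.33), among them those without the young male, 20-month, 24-month or 27-month library, where the log2 fold changes were -0.95, -0.60, -0.44 and -0.72. Cst3 did not pass without the 27-month library (0.93, adjusted p = 0.065). In the 3 libraries that share barcodes the log2 fold change was 9.77 for Ctss, -3.89 for Ctsk, -0.77 for Ctsl and 1.05 for Cst3, and in the other 3, all old, it was 8.83, -3.75, -1.04 and 0.74.

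**Figure D2:**
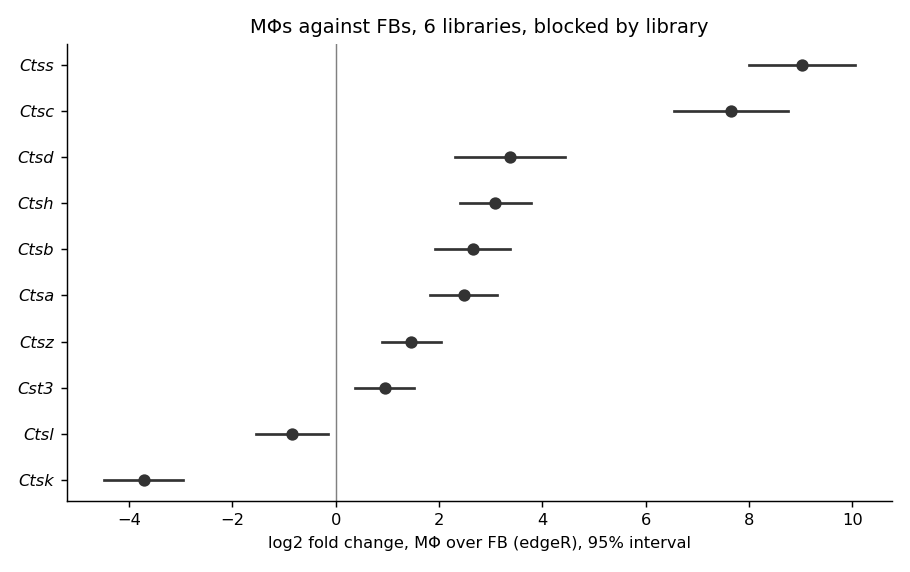
log2 fold change of MΦs over FBs for the 10 genes (edgeR, 6 libraries, library as a block), with 95% intervals. All points are filled, which marks an adjusted p under 0.05, with Ctss at 9.02 and Ctsk at -3.71 at the ends and the interval of Ctsl nearest to 0.

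Other genes of the same pathways were read in the same comparison. Of 41 lysosomal genes tested, 29 were higher and 1 lower in MΦs, with a median log2 fold change of 1.27. The largest rises were Laptm5 (9.19, SE 0.55), a membrane protein of blood cell lysosomes, Lgmn (4.33, SE 0.44), which encodes the asparagine-specific protease legumain, and Man2b1 (3.24, SE 0.32), a lysosomal mannosidase. The 1 lower gene was Laptm4a (-1.25, SE 0.28). All 8 tested genes of MHC class II antigen processing were higher, with a median of 6.79, led by H2-Aa (7.85, SE 0.53), H2-Ab1 (7.81, SE 0.52) and Cd74 (7.53, SE 0.70), whose product cathepsin S trims. Of the other cystatins and stefins only Cstb, the cytosolic inhibitor stefin B, had enough counts, and it was higher by 1.01 (SE 0.30, adjusted p = 0.0095). Of the other cathepsins, Ctsf and Ctso were tested and neither passed.

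The summed level of the 3 elastin-degrading cathepsins, Ctsk, Ctsl and Ctss, was compared as a single value. In MΦs the sum was 1041, 1400, 1431, 1168, 1137 and 2377 CPM, and in FBs 763, 812, 1049, 943, 671 and 898 CPM. MΦs were higher within all 6 libraries, 1.62-fold on average (0.69 ± 0.40 on the log2 scale, SD, n = 6, p = 0.031 in a two-sided exact sign-flip permutation test, the smallest p that 6 libraries allow). In cells thinned to 500 UMIs it was 0.61 with an exact permutation p of 0.0625. The mix differed between the cell types. Ctss made up 48.5% to 83.6% of the summed UMIs in MΦs and 0% to 0.493% in FBs. Ctsl made up 16.2% to 51.1% in MΦs and 88.2% to 94.3% in FBs. Ctsk made up 0% to 0.435% in MΦs and 5.17% to 11.8% in FBs, where the 11.8% rests on 2 Ctsk UMIs of the young female.

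Set against the inhibitor, the sum did not separate MΦs from FBs. There were 0.610, 0.498, 0.477, 0.473, 0.333 and 0.996 UMIs of the 3 cathepsins per UMI of Cst3 in MΦs and 0.719, 0.745, 0.508, 0.687, 0.355 and 0.577 in FBs. MΦs were lower in 5 of 6 libraries and higher at 28 months, with a mean difference of -0.12 ± 0.50 on the log2 scale (SD, n = 6, exact permutation p = 0.56). In the 3 libraries that share barcodes the mean difference was -0.45, and in the other 3 it was 0.20 (exact permutation p = 0.25 and 1, where 0.25 is the smallest p for 3 libraries). Of those other 3, only the 28-month library was higher in MΦs. SMCs held 0.0710 to 0.140 and blood ECs 0.0563 to 0.163 UMIs of the 3 cathepsins per UMI of Cst3, below every library of MΦs and FBs.

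**Figure D3:**
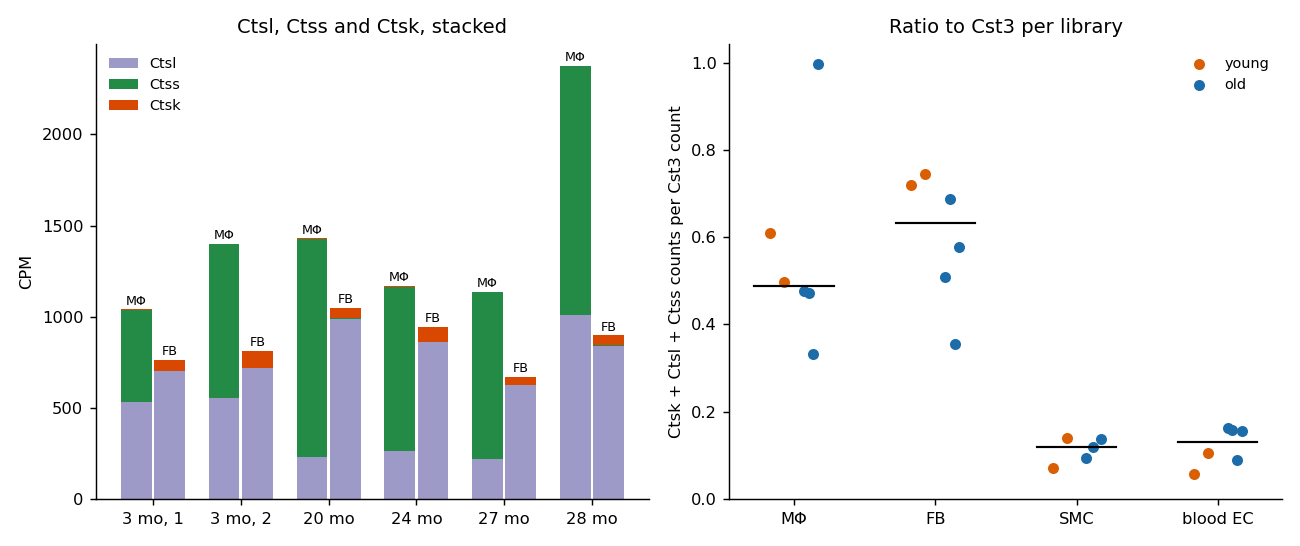
Left, stacked CPM of Ctsl, Ctss and Ctsk in MΦs (left bar) and FBs (right bar) of each library, and right, UMIs of the 3 genes per Cst3 UMI with 1 point per library and a bar at the median. The MΦ bar is the taller in all 6 libraries, Ctss is hardly visible in FBs, and SMCs and blood ECs lie at 0.163 UMIs per Cst3 UMI or less.

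Within MΦs, MHC class II-high and Lyve1-type cells as named by cluster could be compared in 2 libraries, those of 27 and 28 months. These held 11 and 25 MHC class II-high cells against 192 and 346 Lyve1-type cells. Ctss stood at 2185 and 3466 CPM in MHC class II-high MΦs and at 839 and 1221 CPM in Lyve1-type MΦs. Ctsl stood at 102 and 382 CPM in MHC class II-high MΦs, from 6 and 54 UMIs, and at 225 and 1072 CPM in Lyve1-type MΦs. Both libraries moved the same way for each gene, while the ranges of Ctsl overlapped between libraries. Of the 8 genes tested, 1 was higher and 1 lower, where 10.3% of the 8553 genes tested passed, 5.11% higher and 5.2% lower. Ctss was higher by 1.35 (SE 0.34, adjusted p = 0.0013 in edgeR) and Ctsl was lower with -1.46 (SE 0.40, adjusted p = 0.0036). The comparison has 1 residual degree of freedom. With cells assigned by marker UMIs, all 6 libraries had at least 10 cells of both kinds and entered the fit. There Ctss did not pass (0.73, adjusted p = 0.16 in edgeR). Ctsl did not pass in DESeq2 on the 2 libraries (-1.42, adjusted p = 0.090).

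The other 6 genes did not pass. Their log2 fold changes were -0.71 for Ctsc (95% interval -1.39 to -0.04), -0.70 for Ctsb, 0.42 for Ctsz, -0.37 for Cst3, -0.24 for Ctsh and -0.07 for Ctsa, and Ctsk and Ctsd had too few counts. Of 8 genes of class II antigen processing tested 6 were higher, among them H2-Eb1 (1.85, SE 0.35), H2-Ab1 (1.63, SE 0.35) and H2-DMb1 (1.62, SE 0.36), but class II genes had named the cells. Of 40 lysosomal genes 5 were higher, among them Acp5 (3.76, SE 0.52), the tartrate-resistant acid phosphatase, and Gm2a (1.88, SE 0.35), a lysosomal lipid-binding protein. The 2 lower ones were Lamp1 (-1.46, SE 0.35), the main lysosomal membrane glycoprotein, and Grn (-1.30, SE 0.35), which encodes progranulin.

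**Figure D4:**
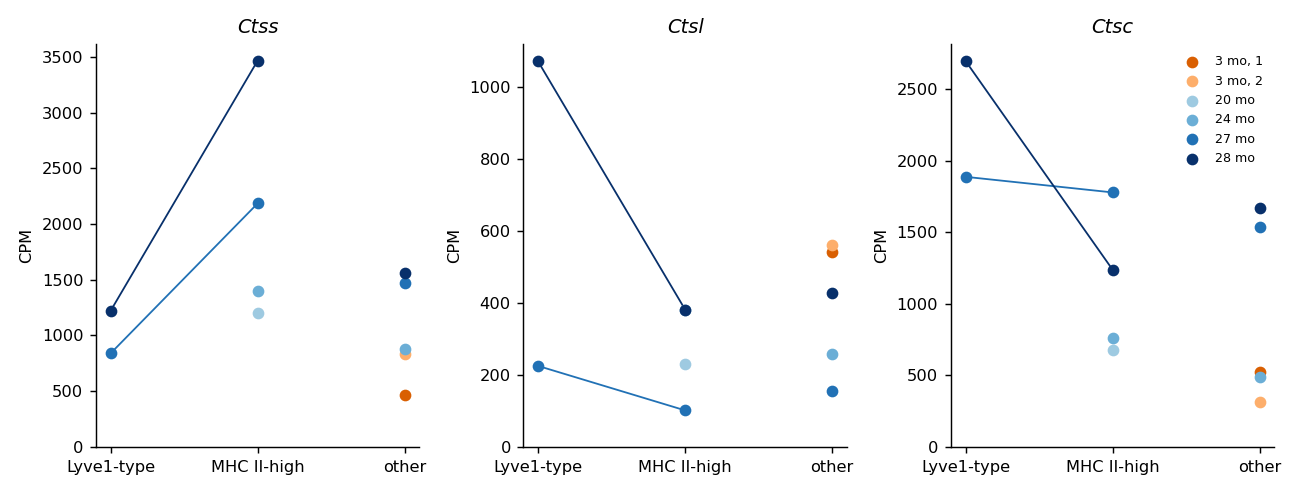
CPM of Ctss, Ctsl and Ctsc in Lyve1-type, MHC class II-high and other MΦs, with 1 point per library of at least 10 such cells and lines joining the 27- and 28-month libraries. Both lines rise for Ctss and fall for Ctsl and Ctsc. For Ctsc, Lyve1-type MΦs hold 1887 and 2696 CPM and no MHC class II-high library is above 1778 CPM. The MHC class II-high point of the 20-month library comes mostly from a cluster found in that library alone.

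Old and young MΦs were compared to ask whether these genes change with age. Ctss was at 899 to 1362 CPM in the 4 old libraries and at 505 and 845 CPM in the 2 young ones, so the groups did not overlap, as was so with old higher for 10.1% of all genes tested. The log2 fold change was 0.66 (SE 0.60, adjusted p = 0.84). Ctsc was above both young libraries in 3 of 4 old ones, with 1873 and 2578 CPM at 27 and 28 months, and its log2 fold change was 1.58 (-0.16 to 3.32). Ctsh likewise was above both young libraries in 3 of 4 and changed by 1.23 (-0.23 to 2.68). Ctsl lay lower in 3 old libraries and higher at 28 months, with -0.41 (-1.97 to 1.16). None of the 9 genes tested passed (0 of 5686 genes did in edgeR, 322 had an unadjusted p under 0.05, and DESeq2 called 2 genes, none of these 9). By cluster, the young MΦs were mostly Cpa6- or Prg4-led and those of 27 and 28 months mostly Lyve1-type. By marker UMIs, where each MΦ had to be named Lyve1-type or MHC class II-high, 114 of 187 and 34 of 44 young MΦs took the Lyve1-type name. As clusters, the Cpa6-led one raised 11.1% of the Lyve1-type markers. In the Prg4-led one no type had more than 11.1% of its markers raised. The part of MΦ kind in the values was not tested.

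In FBs, Cst3 was at 1375 to 2067 CPM in old and 1063 and 1099 CPM in young libraries, and Ctsb at 341 to 462 CPM in old and 300 and 335 CPM in young ones. Neither group overlapped, as was so with old higher for 17% of all genes tested. Cst3 changed by 0.76 on the log2 scale (95% interval -0.17 to 1.68, adjusted p = 0.82) and Ctsb by 0.44 (-0.54 to 1.41, adjusted p = 0.92). Ctsk, at 46.1 to 84.4 CPM in old and 62.5 and 95.6 CPM in young FBs, changed by -0.28 (-1.66 to 1.09), and Ctsl by 0.32 (-0.63 to 1.27). None of the 7 genes tested passed, where 0.0441% of 6797 genes did, and the young FB values rest on 91 and 29 cells. FBs of different libraries fell in different clusters. Of the young FBs, 82 of 91 and 29 of 29 lay in a cluster with Gsn, Dcn and Pi16 in the lead. So did 127 of 132 at 20 months and 198 of 216 at 24 months. At 27 and 28 months 462 of 494 and 755 of 818 lay in one led by Clec3b, Gsn and Dcn. The part of this in the FB values was not tested. The median log2 fold change of all genes was 0.20.

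The cathepsins per Cst3 UMI were 0.719 and 0.745 in young FBs and 0.355 to 0.687 in old FBs, all 4 below both young libraries. The young values rest on few UMIs, 56 and 15 of Ctsl, 5 and 2 of Ctsk and 85 and 23 of Cst3. Cst3 by itself did not overlap between these old and young FBs, so the ratio is not a separate result. The mean difference was -0.50 on the log2 scale (exact permutation p = 0.13, the smallest that 2 against 4 libraries allow). In MΦs the old libraries held 0.333 to 0.996 and the young ones 0.498 and 0.610, a mean difference of -0.08 (exact permutation p = 0.80). The test of whether the age change differs between MΦs and FBs passed for none of the 10 genes and for 0 of 7947 genes in edgeR (407 at an unadjusted p under 0.05, 3 in DESeq2). The difference in log2 fold change was 3.17 for Ctsc (95% interval 0.15 to 6.19, adjusted p = 0.93), with 2 Ctsc UMIs in young FBs, and -0.85 for Ctsl (-2.36 to 0.66).

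**Figure D5:**
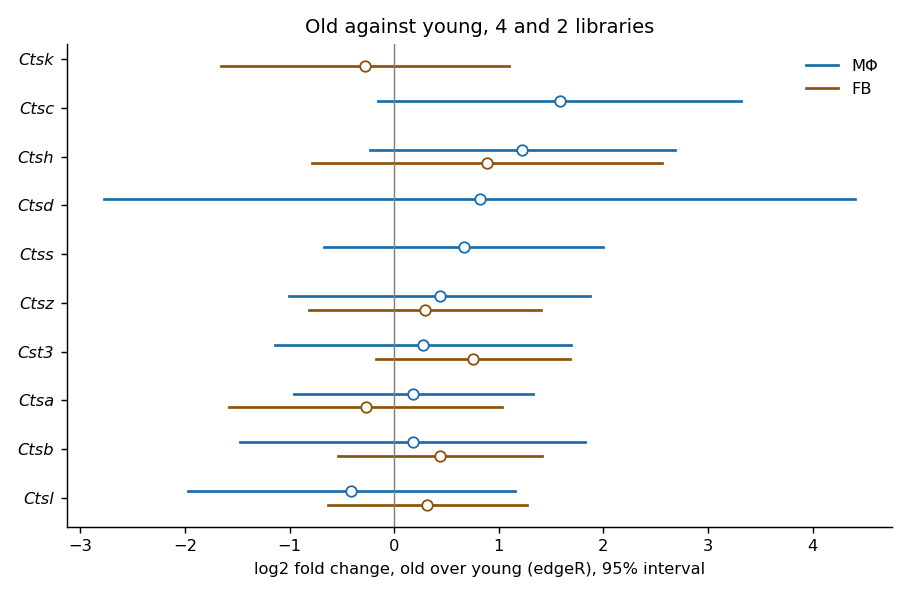
log2 fold change of old over young libraries with 95% intervals (edgeR) in MΦs (blue) and FBs (brown), where tested. Open points mark an adjusted p of 0.05 or more, which holds for all, and every interval includes 0.

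In SMCs, with 25 and 34 young cells, and in blood ECs, with 83 and 63, 6 of the genes could be tested in each and none passed (0 of 6745 and 0 of 5855 genes in edgeR, 538 and 352 at an unadjusted p under 0.05, 3 and 1 in DESeq2). SMCs of the 24-month mouse numbered 9 and were left out. In SMCs the log2 fold changes ran from 0.04 for Ctsa to 2.51 for Ctsh (95% interval -0.05 to 5.06), beside a median of 0.49 over all genes tested, and Ctsh rested on 1 young UMI. In blood ECs Ctsa was at 157 and 89.1 CPM in young and at 50.9 to 59.4 CPM in old libraries, a group difference without overlap (7.75% of all genes tested were lower in this way) with a log2 fold change of -1.10 (-2.17 to -0.03, adjusted p = 0.82). The young values rest on 9 and 4 UMIs. Clusters differed between libraries here too. Young SMCs lay mostly in 1 cluster (22 of 25 and 33 of 34), which also held 160 SMCs of 27 months and 100 of 28 months. Over its 327 cells the median ratio of a cell's UMIs to its library's median was 0.209. Young cells had at least 500 UMIs, so this ratio does not describe them. SMCs of 20 months lay mostly in another cluster (141 of 148), and those of 27 and 28 months mostly in 3 others. Young ECs lay in 1 cluster (81 of 83 and 61 of 63), as did 664 of 670 at 20 months and 195 of 200 at 24 months. It held 44 of 296 at 27 months and 92 of 806 at 28 months. The part of this in the values was not tested.

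Across 13 cell types, the genes whose mean level was most like that of Ctss were Pld4 (Pearson r = 0.983), Ebi3 (0.973) and Cybb (0.965), the last a subunit of the phagocyte oxidase. Those most like Ctsk were Ugdh (0.908), Pcdh19 (0.859) and Esrrg (0.859), and those most like Cst3 were Psap (0.845), which encodes the lysosomal activator prosaposin, Dennd5a (0.836) and Grn (0.832). The types share their libraries and depth, and 8835 genes were compared.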

How the data were processed

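Single cell RNA sequencing of PAs from 6 mice was analysed (10x Genomics 3' v3.1 chemistry). The authors used cutadapt for trimming and STARsolo, with STAR, for alignment and counting on GRCm38.p6, per the submitters' processing notes, whose versions are not given in the sources used here. What the authors deposited are whole-number UMI counts for each gene in each barcode, not normalized and not filtered. Versioned gene identifiers matched the annotation at hand (GENCODE M21) for 35 of 53647 genes, and 52093 without the version, so genes are named by the files' symbols and strand or overlap rules of the counting are unknown. Promoter windows and gene positions are those of RefSeq for GRCm38.p6.

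Barcodes with at least 500 UMIs, 300 genes and at most 20% mitochondrial UMIs were kept. Doublets were marked with scrublet, or, where it marked under 0.5%, by taking the highest scores up to 0.8% for every 1000 barcodes, which removed 303. Cells were clustered with scanpy 1.11.5 and leidenalg 0.10.2 (2000 variable genes without cathepsins, cystatins and stefins, 40 components, 15 neighbours, resolution 1.0), and myeloid cells again with 30 components. A cluster took a cell type's name where over 40% of that type's markers, and 3 or more, were raised. It stayed unnamed if more markers of another type than of its own were among its 10 leading genes, or if 3 times its cells' median UMI count was still below the median of their own library and none of its markers led. Erythroid cells needed 3 of their genes among the leading 10. C1qa-positive myeloid clusters without a name became other MΦs, and MHC class II-high clusters below the C1qa limit were kept apart. The C1qa limit for MΦs was set after the clusters were seen.

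Counts were summed per library and type with at least 10 cells and compared with edgeR 4.0.16 (R 4.3.3) by its robust quasi-likelihood test with TMM scaling, p-values being adjusted over all genes by Benjamini-Hochberg and called under 0.05. A gene was tested if more than 5% of a compared type's cells held it in 3 or more libraries (both libraries for the MΦ subsets). CPM are counts per 1000000 UMIs of the summed cells. Single values were tested by exact permutation (numpy 2.4.6), with 1 CPM or 0.5 UMIs added before logs. A count of 0 allows up to 3 UMIs. Bounds of this kind cover counting error only. Each library was taken as 1 mouse. Barcodes shared between libraries were not removed, and whether the libraries that share them are independent was not tested. Scripts were tested on simulated data.

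The 10 genes, the gene lists, markers and tests were chosen with earlier results of these data known. Genes named beyond the 10 are up to 3 rises and 3 falls per list and comparison that passed, apart from 1 gene not reported here, and for Ctsk, Ctss and Cst3 the 3 genes of most like mean log2(CPM + 1) over cell types among genes of at least 50 CPM in 1 type. Alternatives were DESeq2 1.42.0, no TMM, filterByExpr or no gene filter, at least 1000 UMIs and 500 genes, cells thinned to 500 UMIs, types by marker UMIs, doublets kept, a pseudocount 10 times as large, Ctss and Ctsl only, no library block, the barcode-sharing libraries as a covariate or left out, and each library left out. Fits on the barcode-sharing libraries alone, and for the 2 summed values on the others alone, were added after the data were seen.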

Additional observations from a re-analysis of the deposited data

Results flagged for a closer look

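Of 40 groups of 4 to 6 libraries examined for a library far from the rest, 5 held one, where chance gives about 1 in 20. 3 of these concern the young female, whose FBs numbered 29. There the MΦ minus FB difference in log2(CPM + 1) was -6.59 for Ctsk (from -3.81 to -3.50 in the other libraries), 7.94 for Ctsh (2.09 to 3.43) and -5.61 for Ctsd (1.38 to 5.19). In each of these the library had 0 UMIs of the gene in 1 of the 2 cell types. Ctsl stood at 1011 CPM in the MΦs of the 28-month library, against 218 to 264 CPM in the other old libraries, from 2468 UMIs. In blood ECs Ctsl stood at 415 CPM at 20 months, against 208 to 234 CPM in the other old libraries. The 2 Ctsl values rest on far more counts than the values of the young female, and their cause was not tested.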

How the results depend on the processing

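MΦs and FBs were paired within libraries. Old and young mice were not paired, since they are different animals and the labels give no pairing between them. In MΦs against FBs 151 of 162 single-gene values kept direction and side of the threshold and the other 11 kept direction. With filterByExpr, thinned cells or the barcode-sharing libraries alone, 1958, 1372 and 1214 genes passed (2102 to 3714 leaving out a library, lowest without that of 27 months and 2144 without that of 28 months). The summed cathepsin difference was 0.68 with at least 1000 UMIs, 0.61 after thinning, 0.87 without and 0.51 with only barcode-sharing libraries, and 0.55 to 0.77 leaving out a library (exact permutation p = 0.0625, or 0.25 with 3 libraries, which apart from thinning are the smallest that the libraries left allow). Without TMM the median log2 fold change of all genes in this comparison moved from 0.05 to -0.11. The summed cathepsin difference per Cst3 turned to 0.20 without barcode-sharing libraries. Leaving out a library it ran from -0.31, without that of 28 months, to -0.033. In MHC class II-high against Lyve1-type MΦs, DESeq2 called 1 of the 10 genes and 342 in all, thinning 5 and 210, and marker assignment 1 and 483. Ctsa turned to 0.021 without TMM, and by marker assignment Ctsc to 0.054 and Ctsh to 0.049.

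With age, none of the 10 genes passed in any fit (lowest adjusted p 0.35), but directions often turned. Genes called in FBs were 20 without a filter and 0 with filterByExpr, 1000 UMIs, thinning or the barcode covariate (0 to 3 leaving out a library), in MΦs 2 (DESeq2) and 26 (no filter), in SMCs 3 (DESeq2), 1 (no TMM), 2 (filterByExpr), 35 (no filter) and 4 (doublets kept), and 153 without the 20-month library (otherwise from 0), in ECs 1 (DESeq2) and 9 (no filter), and for the difference between MΦs and FBs 3 and 27 (0 to 9 leaving out a library, 9 without that of 20 months and 7 without that of 24 months). In FBs Ctsa turned to 0.10 without a filter, 0.058 by marker assignment and 0.038 with the covariate, Ctsk to 0.088 without a filter, 9.58 with 1000 UMIs and 0.42 with the covariate, Ctsh and Ctsz to -0.19 and -0.27 with the covariate. In MΦs Ctsa, Ctsb and Ctsz turned to -0.19, -0.65 and -0.44 with the covariate, and leaving out a library Cst3 ran from -0.026 to 0.70, Ctsb from -0.42 to 1.26 and Ctsz from -0.064 to 1.35. In SMCs Ctsa turned to -0.066 (DESeq2) and -0.36 (no TMM), and leaving out a library ran from -0.20 to 0.37 and Cst3 from -0.27 to 0.98. In ECs Ctsh turned to -0.076 with the covariate, Ctsz and Cst3 to 0.056 and 0.092 without a filter, and Ctsb ran from -0.0028 to 0.36. For the difference between MΦs and FBs, thinning gave -0.92 for Ctsa, -1.29 for Ctsh and -0.74 for Ctsz, 1000 UMIs gave -4.99 for Ctsd, -10.2 for Ctsk and -0.58 for Ctsz, marker assignment -0.92 for Ctsk, DESeq2 1.63 for Ctss, filterByExpr, no filter and doublets kept -0.17, -0.20 and -0.11 for Ctsz, and barcode-sharing libraries alone -0.28 for Ctsa, 0.76 for Ctss and -0.28 for Ctsz. Leaving out a library it ran from -0.71 to 0.040 for Cst3, -0.91 to 0.85 for Ctsb, -3.78 to 3.44 for Ctsc, -5.29 to 12.2 for Ctsd, -8.12 to 0.87 for Ctsh and -0.25 to 0.80 for Ctsz. The cathepsins per Cst3 in old against young MΦs turned to 0.034 by marker assignment and ran from -0.39 to 0.14. The cause of these turns was not tested. With at least 1000 UMIs the young female held 2 FBs and was left out. Values of FBs with age, and of the difference between MΦs and FBs, then rest on 1 young library with 26 FBs. Not run were the covariate in SMCs, where it coincides with age, 1000 UMIs in SMCs and ECs and age without barcode-sharing libraries, which leave no young library, and leaving out a library in MΦ subsets, which leaves no residual degrees of freedom. Young depth limits all age values.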

Other observations

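Genes of the same families outside the 10 were read in other cell types, and are given as values. Stefins stood out in neutrophils, where Stfa2l1 had 177 UMIs and Stfa2 36 over 2 libraries, beside 2 and 0 UMIs in MΦs and 0 of each in FBs. Ctsw, which encodes a cathepsin of cytotoxic lymphocytes, had 116 UMIs in T cells (median 130 CPM over 5 libraries), 1 in B cells and 0 in MΦs and FBs. Cst7, which encodes cystatin F, had 68 UMIs in T cells and 16 in MΦs. Ctse, an aspartic protease of the endosome, had 512 UMIs in B cells (median 83.9 CPM), 55 in MΦs and 12 in FBs. Ctsg, the granule protease cathepsin G, had 1 UMI in MΦs and 0 in neutrophils.

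Monocytes (87 cells) and mast cells (23 cells) had at least 10 cells in the 28-month library alone. Ctss stood at 1633 CPM in its monocytes and 1033 CPM in its mast cells, Cst3 at 1786 and 1481 CPM, and Ctsl at 108 and 453 CPM.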
